A study of Mus musculus with 9 samples.

Results

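Stat5b binding in mouse CD4+ T cells was compared between the end of 2 rounds of Th2 differentiation and 8 h of it. The comparison used 4 of the 9 sequenced libraries: the Stat5b immunoprecipitates of both stages and the control immunoprecipitates made with IgG at the same stages. Binding was measured over regions taken from the 6 peak lists that the authors deposited for Stat5a and Stat5b at 8 h, 13 h and 2 rounds. Overlapping peaks were joined, which gave 43771 regions, and the 5 on the mitochondrial chromosome were left out, so that 43766 nuclear regions were compared.

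The series holds ChIP-seq libraries, in which DNA bound by a protein is recovered with an antibody and sequenced, for Stat5a, Stat5b and IgG at each stage. The labels name the cells as CD4+ T cells, the mouse as the organism and the antibody used. They give the strain, age, culture conditions and treatment only by reference to a publication, so the cytokines and the length of a round are not stated here. Each group has 1 library and no replicate, so every value below compares libraries, not conditions, and no p-value is given. Immunoprecipitated DNA holds no expression values, so the labelled cell type could not be checked against marker genes.

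Stat5a and Stat5b are closely related transcription factors that cytokine receptors activate by tyrosine phosphorylation, after which they pair, enter the nucleus and bind DNA. In T cells they act downstream of interleukin-2 and related cytokines. Th2 cells are the helper T cells that make interleukin-4, and the title of the series concerns interleukin-2 in priming for that fate. IgG control libraries show where reads collect without a specific antibody, for example over repeats and open chromatin.

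The Stat5b libraries held 6867047 reads at 8 h and 7656900 after 2 rounds, and the IgG libraries held 6241015 and 5787254. Across the series the range was 3130228 to 9036070. All values were scaled to RPM, which is the number of reads for each 1000000 that a library had mapped, counting a read where its 5' end fell in a region. Of the Stat5b reads, 74.1% at 8 h and 64.4% after 2 rounds had a start and strand of their own, and 56.7% and 62.1% were placed with no mismatch. These library measures moved together with the stage. Regions were therefore also counted with each start and strand taken once, called distinct starts below. With reads of no mismatch alone, 14288 regions were higher and 22 lower by the rule given below, with a median of 2.26 on the log2 scale. Intervals are at 95% and cover counting error only, since reads carry no molecular identifiers.

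A larger share of Stat5b reads fell in the regions after 2 rounds. The share was 6.51% at 8 h (Wilson interval 6.49 to 6.52) and 19.8% after 2 rounds (19.76 to 19.82). In IgG it was 4.07% and 4.54%. The Stat5b share was thus 1.60 times the IgG share at 8 h and 4.36 times after 2 rounds. Without the 27 regions described below in which reads heap on single starts, the Stat5b shares were 4.29% and 19.8%, and the IgG shares 2.68% and 3.32%. The Stat5b share was then 1.60 and 5.97 times that of IgG. On distinct starts these ratios were 1.79 and 6.77. Because the 2 Stat5b lists helped to define the regions, the shares were also taken over regions built from the 4 other lists alone, where the ratios were 1.75 and 5.82.

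Region by region, the ratio of the Stat5b RPM after 2 rounds to that at 8 h was given with an exact conditional (Clopper-Pearson) interval. A region was called higher when its whole interval lay above 2, and lower when it lay below 0.5. By this rule 18984 regions, or 43.4% of the 43766, were higher after 2 rounds and 94, or 0.215%, were lower. The same rule on the IgG pair called 241 regions higher (0.551%) and 64 lower (0.146%). No peak list came with the IgG libraries, whereas 29390 of the 43766 regions had a Stat5b peak only after 2 rounds. These held 17647 of the 18984 higher calls. The 11173 regions with no Stat5b peak at either stage held 228 (2.04% of them). The choice of regions by the compared libraries thus affects these shares. The median Stat5b ratio was 4.82 over the 34497 regions with reads at both stages, and the median IgG ratio was 1.08 over 26273 regions. The middle of the Stat5b distribution was broad, with 10% of ratios below 1.41, 25% below 2.74, 25% above 8.97 and 10% above 16.1. The interval lay wholly above 4 in 5860 regions, above 8 in 1257, above 16 in 209 and above 32 in 25.

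Counts at 8 h were low, which limits how well single ratios are known. The median region held 4 Stat5b reads at 8 h and 22 after 2 rounds. No read was seen at 8 h in 7456 regions, of which 3225 were called higher. A count of 0 at 8 h allows up to 3 reads, or 0.437 RPM. A further 6494 of the regions called higher had 1 to 3 reads at 8 h.

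Counting distinct starts left 13569 regions higher (31.0%) and 3 lower (0.00685%), and 13342 regions were called higher both ways. On the IgG pair it called 17 higher (0.0388%) and 5 lower (0.0114%). Of the 18984 regions called higher on all reads, 18501 (97.5%) also had a Stat5b to IgG interval above 1 after 2 rounds. At 8 h, 1854 of the 18984 (9.77%) had such an interval. Among all regions these shares were 71.5% after 2 rounds and 12.1% at 8 h, or 64.4% and 7.05% on distinct starts.

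On the scale of all mapped reads 99.5% of the called regions were higher, and on that of the reads outside the regions 99.7%. Scaling the libraries to the median ratio instead sets aside a common shift of 2.27 on the log2 scale, so that its calls are relative to the typical region. It left 805 regions higher (1.84%) and 1988 lower (4.54%), so that 28.8% of the called regions were higher. With 1 library a stage, a rise at most regions and a better yield of the later immunoprecipitation cannot be told apart. Values given below as ratios are on the scale of all mapped reads unless the median scaling is named.

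**Figure D1:**
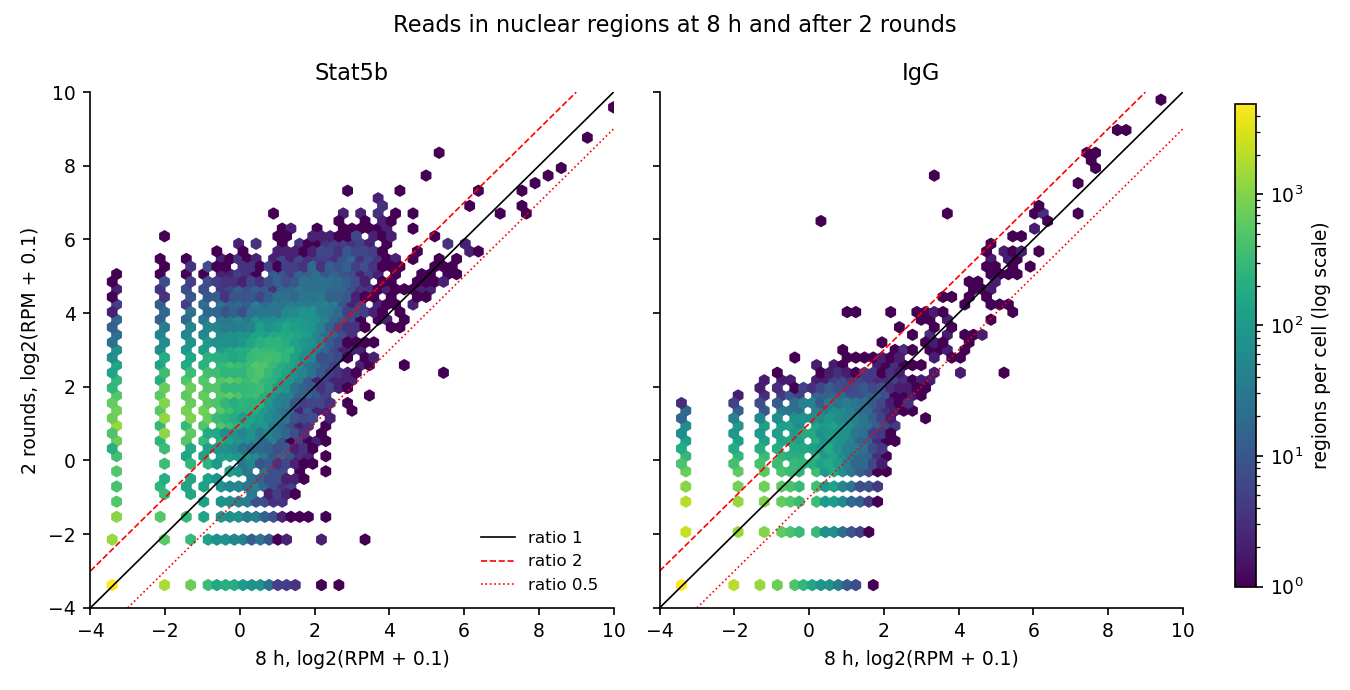
Reads in each nuclear region at 8 h (x axis) and after 2 rounds (y axis), as log2 of RPM plus 0.1, for Stat5b (left) and IgG (right), with shading for the number of regions and lines at ratios of 1, 2 and 0.5. The bulk of the Stat5b regions lies above the line of ratio 1, with a median ratio of 4.82, and the IgG regions lie around it, with a median ratio of 1.08; 2 regions for Stat5b and 3 for IgG lie beyond the axes.

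The deposited peak lists differed in length and in the width of their peaks. After joining, the Stat5b list at 8 h held 3733 nuclear peaks with a median width of 96 bp, covering 0.439 Mb. The list after 2 rounds held 31744 peaks with a median width of 578 bp, covering 20.6 Mb. Of the 8 h peaks, 2694 overlapped a peak of the later list by at least 1 bp (72.2%, Wilson interval 70.7 to 73.6). In the other direction, 2207 of the later peaks overlapped an early one (6.95%, 6.68 to 7.24). Requiring 50% of both peaks left 0.643% and 0.0756%, with the widths as given. Of the later peaks that lay over early ones, 397 held 2 or more separate early peaks, and 1 held 7.

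The early peaks that were found again differed in their own library from those that were not. At 8 h, 42.3% of the 2694 peaks found again had a Stat5b to IgG interval above 1 on distinct starts, against 9.14% of the 1039 that were not found again. On all reads these shares were 68.4% and 49.8%. Those found again had a median width of 102 bp and 9 reads at 8 h, and the others 86 bp and 7 reads.

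Regions fell into 4 classes by which of the Stat5b lists held a peak there. Since the lists were made from the libraries compared, their levels describe the classes and are no separate evidence of direction. The 2215 regions with a Stat5b peak at both stages had a median of 3.20 RPM at 8 h and 10.6 RPM after 2 rounds, with IgG at 0.801 and 1.04 RPM. Of these, 1109 (50.1%) were higher and 0 lower, with a median ratio of 3.24. The 29390 regions with a peak only after 2 rounds had medians of 0.583 RPM at 8 h and 3.79 RPM after 2 rounds, with IgG at 0.321 and 0.518 RPM. Among them 17647 (60.04%) were higher and 0 lower, and the median ratio was 5.83. The 988 regions with a peak only at 8 h were narrow, with a median width of 94 bp. Their median was 1.17 RPM at 8 h and 0.261 RPM after 2 rounds, 85 were lower and 0 higher, and 3 were lower on distinct starts. The remaining 11173 regions, which came from the Stat5a lists or the Stat5b list at 13 h, had medians of 0.146 and 0.261 RPM, with 228 higher and 9 lower.

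Regions with a peak at both stages had smaller ratios than those with a peak only after 2 rounds. The 8 h library both set these classes and forms the lower term of the ratio. A smaller ratio where it has a peak is thus built into the choice and no separate evidence. Under the median scaling, 22 of the 2215 regions with a peak at both stages were higher and 212 (9.57%) lower. Among the 29390 later regions, 783 were higher and 70 lower under that scaling. At 13 h the Stat5b library had a median of 6.20 RPM in the regions with a peak at both stages, and 1.22 RPM in those with a peak only after 2 rounds. Of the latter, 7302 had a Stat5b peak by 13 h. Their medians were 1.31 RPM at 8 h, 3.21 RPM at 13 h and 6.40 RPM after 2 rounds, with a median ratio of 5.18 between the last and the first. The 22088 without one had 0.437, 0.885 and 3.27 RPM, and a median ratio of 6.28.

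A view of sites not chosen from either Stat5b library came from the Stat5a peaks at 8 h. Over the centres of 5486 such peaks, the mean Stat5b density within 200 bp was 5.52 RPM per kb at 8 h and 18.8 RPM per kb after 2 rounds. The flanks beyond 1 kb had 1.07 and 2.25 RPM per kb, so the centre stood 5.14 times above the flank at 8 h and 8.37 times after 2 rounds. On distinct starts these factors were 5.38 and 7.87. IgG also had a peak at these centres, 3.23 times its flank at 8 h and 2.91 times after 2 rounds, or 2.41 and 2.12 times on distinct starts. The Stat5b density was thus higher after 2 rounds at the flanks as well as at the centre, and the IgG centre stood no farther above its flank.

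**Figure D2:**
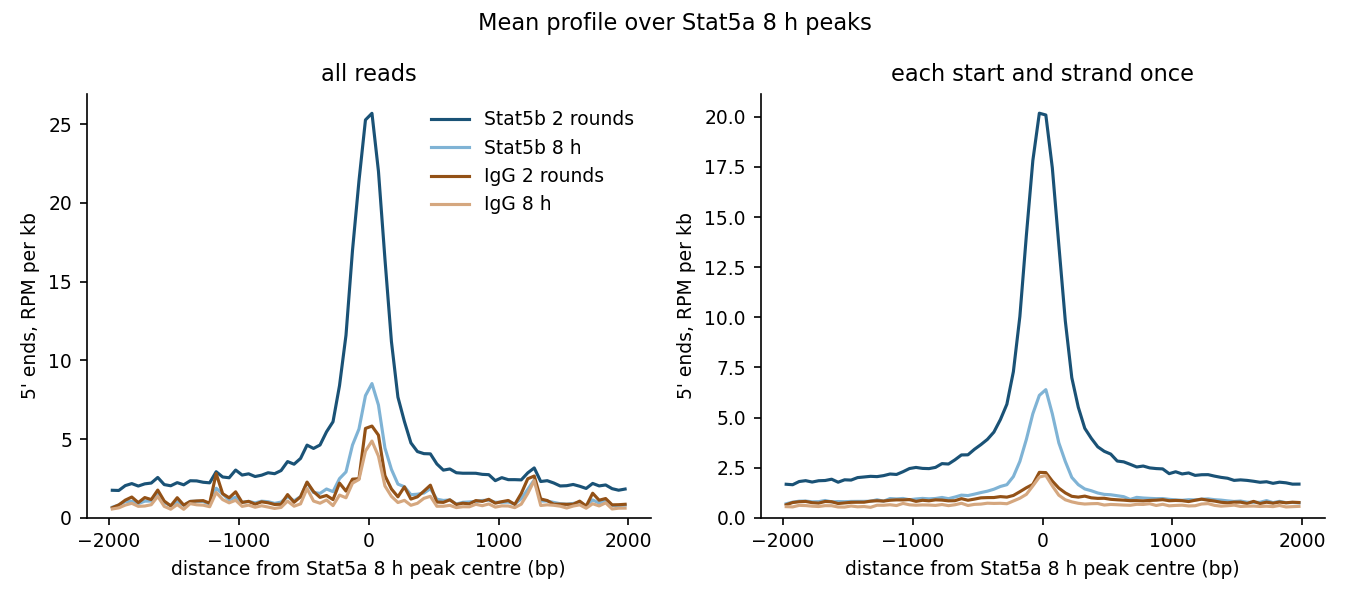
Mean density of read 5' ends (RPM per kb, both strands) against distance in bp from the centres of 5486 Stat5a peaks called at 8 h, for all reads (left) and distinct starts (right), with 1 line per library. The Stat5b line after 2 rounds lies above the 8 h line throughout, with 18.8 against 5.52 RPM per kb within 200 bp of the centre on all reads, and the IgG lines stay below both at the centre.

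The Stat5a library at 8 h also gave an ordering of all regions by early occupancy that used neither Stat5b library. The regions ordered were still those of the 6 lists, and 29390 of the 43766 had a Stat5b peak only after 2 rounds. This choice of regions by a compared library affects the ratios, and its part in the trend was not tested. Without the 27 heaped regions, the Stat5b ratio fell along this order. Over regions with Stat5b reads at both stages its median was 5.38 where Stat5a had 0 reads (7250 of 13339 regions), 5.08 with 3 to 5 reads (7807 of 8618), 4.14 with 11 to 20 reads (3697 of 3759) and 3.37 with 51 or more (256 of 256). With regions read at 1 stage alone ranked at the end they belong to, and those read at neither left out, these medians were 7.34, 5.38, 4.15 and 3.36. The share of regions called higher went the other way, from 30.6% with 0 Stat5a reads to 62.0% with 21 to 50 and 59.4% with 51 or more, and regions with more reads also have narrower intervals. Under the median scaling 5.73% of the first class and 27.7% of the last were lower. The median IgG ratio was 1.08 in all 7 classes except that of 11 to 20 reads, where it was 1.23. A ratio of 1.08 is what equal counts give at the 2 IgG library sizes. The mean IgG level was higher after 2 rounds in every class, with 0.219 RPM at 8 h and 0.274 RPM after 2 rounds in the lowest. In the class of highest early Stat5a occupancy Stat5b had medians of 10.1 RPM at 8 h and 37.3 RPM after 2 rounds, against 0.146 and 1.31 RPM where Stat5a had no read. The highest class also held much IgG, with a mean of 22.9 RPM at 8 h and 29.1 after 2 rounds beside a mean Stat5b level of 26.8 and 51.7 RPM. With the mean IgG level of each stage subtracted, the ratio of the mean Stat5b levels was 19.2 in the lowest class and 5.84 in the highest.

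**Figure D3:**
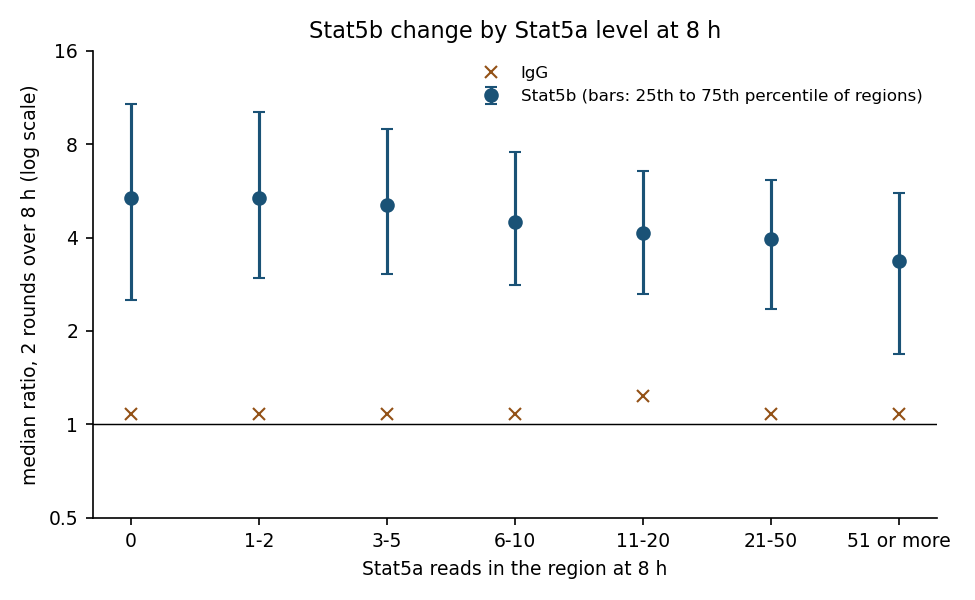
Ratio of RPM after 2 rounds to RPM at 8 h (y axis, log scale) for regions classed by their Stat5a reads at 8 h (x axis), for Stat5b and IgG, with the median over regions read at both stages as a symbol and, for Stat5b, the range from the 25th to the 75th percentile as a bar. The Stat5b median falls from 5.38 with 0 reads to 3.37 with 51 or more, and the IgG median stays between 1.08 and 1.23.

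The regions with the most Stat5b reads above IgG after 2 rounds were strong at every stage. The first was chr9:107153387-107156833 (mm8), with 41.1 RPM at 8 h, 119 RPM at 13 h and 322 RPM after 2 rounds. IgG had 6.09 RPM there at 8 h and 3.63 RPM after 2 rounds. Its ratio was 7.85 (interval 6.93 to 8.91), or 4.44 on distinct starts. It ranked first above IgG at 8 h too, so the leading site was the same at both stages.

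The second was chr16:23902784-23905036, with 30.6, 84.2 and 205 RPM at the 3 stages and a ratio of 6.72 (5.81 to 7.80). The third, chr10:94844625-94848058, was weaker at the start, with 7.72 RPM at 8 h, 29.6 at 13 h and 164 RPM after 2 rounds. Its ratio of 21.3 (16.2 to 28.6) was the largest among the 10 strongest regions, and it was 11.1 on distinct starts. Next came chr17:34812280-34813817, which rose from 18.1 to 156 RPM, a ratio of 8.61 (7.15 to 10.5), while Stat5a went from 38.7 to 29.5 RPM. The fifth, chr16:10552338-10554126, had 12.4 RPM at 8 h and 148 RPM after 2 rounds, a ratio of 11.95 (9.58 to 15.1).

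All 10 of these regions were held by all 6 peak lists, and 9 of them were called higher, on all reads and on distinct starts. Their ratios ran from 2.02 to 21.3, with a median of 8.60 on all reads and 5.32 on distinct starts. The exception was chr11:3091075-3094543, which had 80.2 and 162 RPM of Stat5b but also 53.4 and 50.3 RPM of IgG, and a ratio of 2.02 (1.83 to 2.24). Stat5a ratios in the same 10 regions ran from 0.763 to 2.38, with a median of 1.55. The regions were chosen by their Stat5b level after 2 rounds, which favours larger Stat5b ratios.

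Of the 10 strongest regions at 8 h, 4 were among the 10 strongest after 2 rounds, and 38 of the top 100 were shared. The 6 that ranked high at 8 h alone had ratios of at most 5.78, and a choice by such ranks itself favours smaller ratios. The region chr1:60990082-60991533 had 23.5 RPM at 8 h, 53.3 at 13 h and 81.0 RPM after 2 rounds, a ratio of 3.45 (2.90 to 4.13) that was 2.34 and not called on distinct starts. At chr8:84398358-84399721 Stat5b went from 19.4 to 46.1 RPM, a ratio of 2.38 (1.95 to 2.93) that was not called. By contrast chr6:124715655-124716745 went from 17.3 to 100.2 RPM, a ratio of 5.78 (4.76 to 7.07). The ninth, chr14:39187412-39187916, had 224 and 178 RPM of Stat5b with 208 and 336 RPM of IgG. Its Stat5b to IgG ratio was 1.08 (0.998 to 1.16) at 8 h and 0.531 after 2 rounds, so its interval was above 1 at neither stage.

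**Figure D4:**
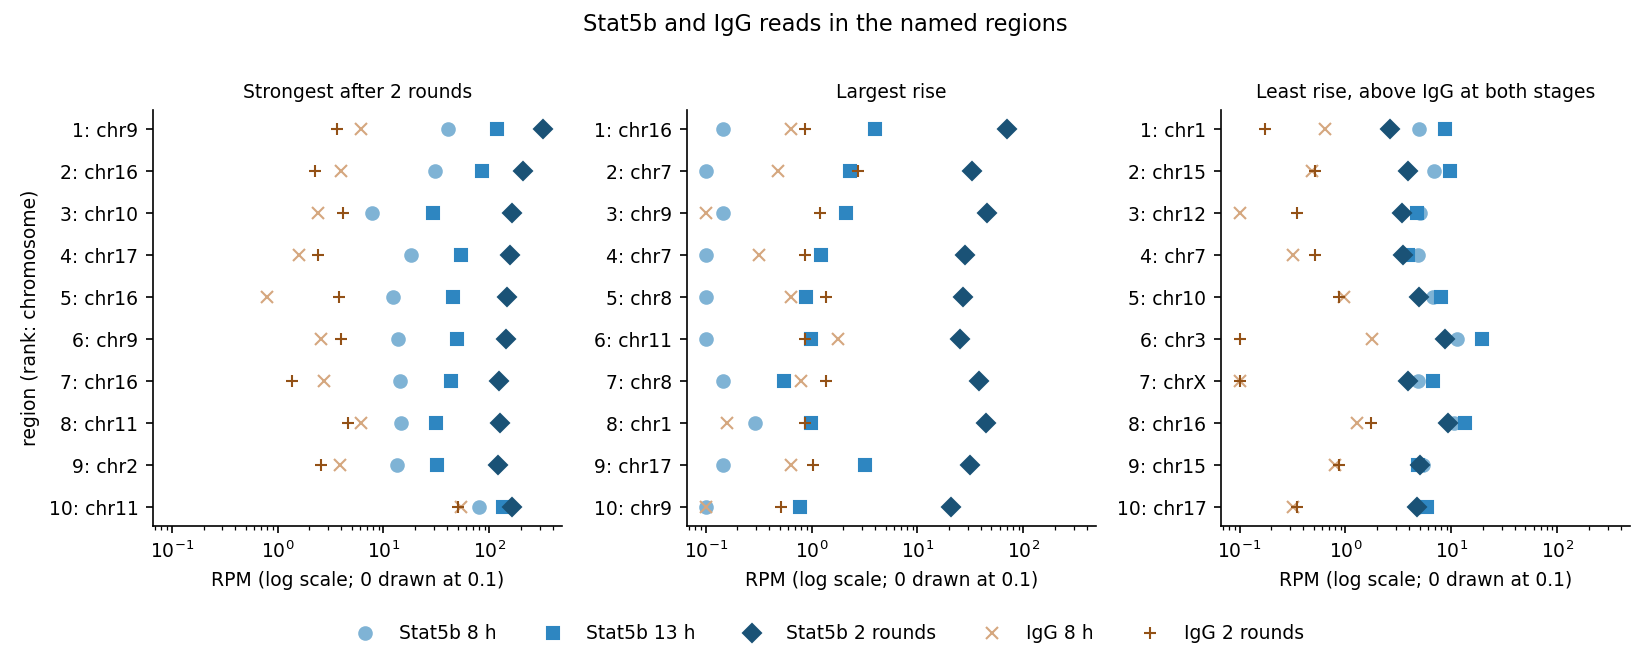
RPM on a log axis in 3 panels of 10 regions (the strongest after 2 rounds, the largest rises, and the least rises among regions above IgG at both stages, the last described below), with 1 row per region labelled by rank and chromosome, 1 symbol per library and a level of 0 drawn at 0.1. The strongest regions after 2 rounds carry 7.72 to 80.2 RPM of Stat5b at 8 h and 120.8 to 322 RPM after 2 rounds, and those of largest rise carry 0 to 0.291 RPM at 8 h and 20.9 to 70.4 RPM after 2 rounds. In the panel of least rises the levels are 4.81 to 11.2 RPM at 8 h and 2.61 to 9.27 RPM after 2 rounds.

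The largest rises were at regions with almost no Stat5b read at 8 h. They were picked by the lower bound of the ratio, which favours regions with few reads at 8 h. Their low 8 h levels and lack of 8 h peaks thus describe the choice. These 10 regions had 0 to 2 Stat5b reads at 8 h and 20.9 to 70.4 RPM after 2 rounds, with at most 1.76 RPM of IgG at 8 h and 2.77 RPM after 2 rounds. The first by the lower bound of its interval was chr16:10781981-10782845. It held 1 read at 8 h (0.146 RPM), 3.98 RPM at 13 h and 539 reads after 2 rounds (70.4 RPM), a ratio of 483 with an interval of 86.4 to 19130. Stat5a in that region went from 2.56 to 17.5 RPM, a ratio of 6.83.

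In chr7:46868429-46869368 Stat5b had 0 reads at 8 h and 252 reads (32.9 RPM) after 2 rounds. With the floor of 3 reads for that library it was at least 75.3-fold higher. At chr9:13381882-13382861 it went from 1 read (0.146 RPM) to 347 reads (45.3 RPM), with 2.10 RPM at 13 h. All 10 regions were called higher on distinct starts too. None held a Stat5b peak at 8 h, and their 13 h levels ran from 0.553 to 3.98 RPM. Stat5a ratios there ran from 3.43 to 21.7, measured against 0.320 to 3.51 RPM at 8 h.

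**Figure D5:**
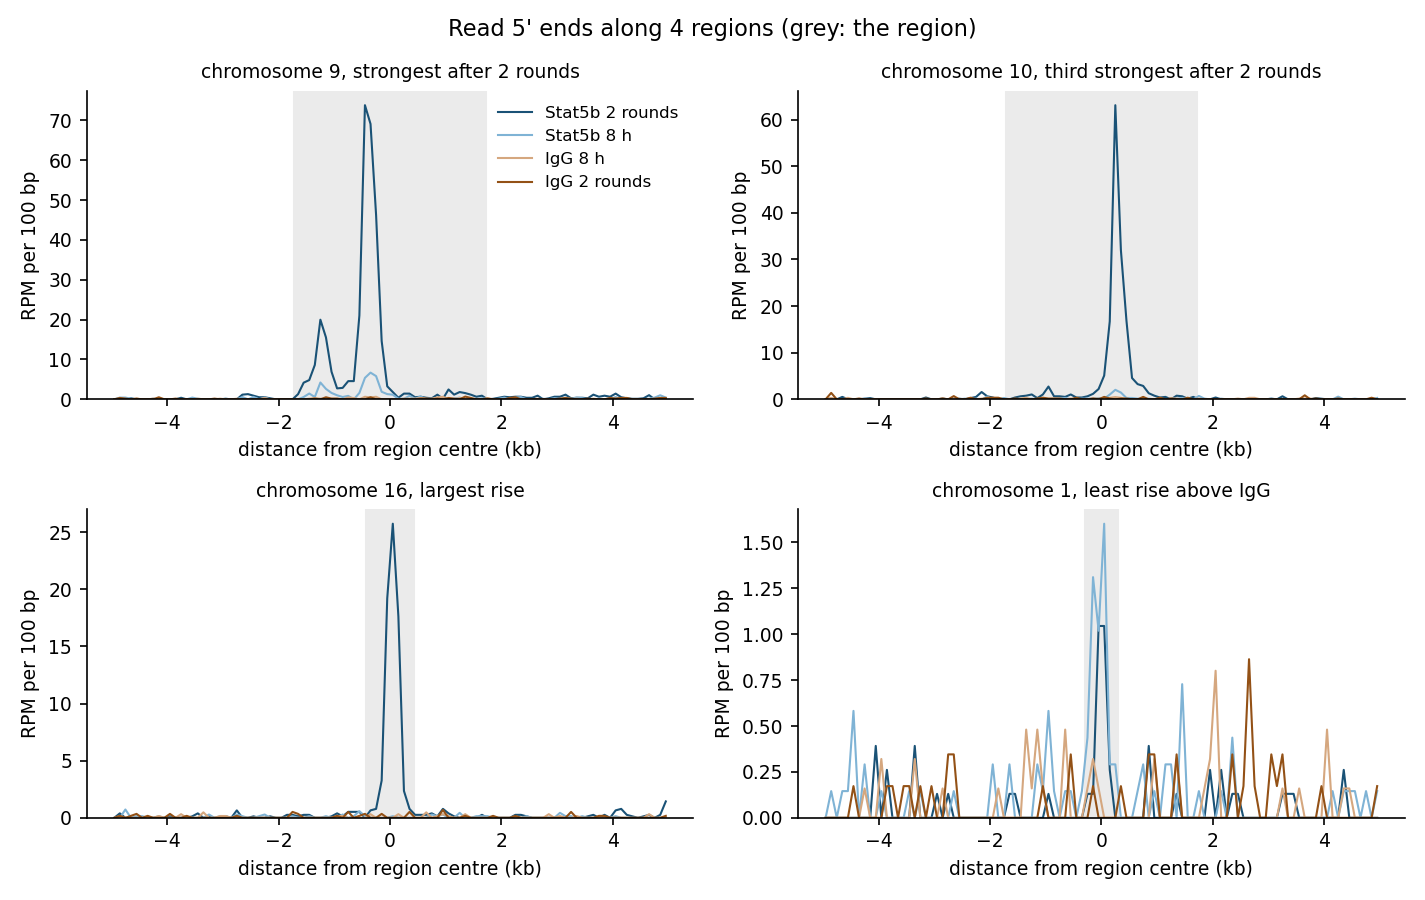
RPM per 100 bp bin (y axis, scaled separately in each panel) within 5 kb of the centre of 4 regions (x axis, distance in kb, with the region in grey), with 1 line per library: the strongest after 2 rounds and the one on chromosome 10 with the largest ratio among the 10 strongest, the first of the largest rises and the first of the least rises among regions above IgG at both stages. The highest Stat5b bin after 2 rounds is 73.8, 63.1, 25.7 and 1.05 RPM in turn, the highest at 8 h is 6.70, 2.04, 0.728 and 1.60 RPM, and no IgG bin passes 1.38 RPM.

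Within the strongest regions the reads piled up at narrow places. In the first, the highest 100 bp bin held 73.8 RPM after 2 rounds and 6.70 RPM at 8 h, 450 and 350 bp to the left of the centre. In the region on chromosome 10, chr10:94844625-94848058, the highest bin was at the same place at both stages, 250 bp to the right of the centre, with 2.04 and 63.1 RPM. In the region of largest rise, the highest bin after 2 rounds held 25.7 RPM, 50 bp from the centre.

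Some regions occupied at 8 h did not rise. A set chosen after values were seen took the 396 regions without heaps with at least 30 Stat5b reads at 8 h and a Stat5b to IgG interval wholly above 2 at both stages. Of these, 248 were higher, 203 of them on distinct starts too, and 0 were lower. Ratios ran from 0.528 to 15.4 with a median of 3.43, and 11 were below 1. The smallest was at chr1:69487563-69488148, with 4.95 RPM at 8 h, 8.63 RPM at 13 h and 2.61 RPM after 2 rounds, a ratio of 0.528 (0.288 to 0.943). IgG there had 0.641 and 0.173 RPM.

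The region chr3:107175776-107176533 had more reads and went from 11.2 to 8.62 RPM, a ratio of 0.769 (0.545 to 1.08), with 19.6 RPM at 13 h. At chr16:55744846-55745620 the levels were 10.6, 13.4 and 9.27 RPM, a ratio of 0.872 (0.620 to 1.23). None of the 10 smallest ratios in this set met the rule for lower, and under the median scaling each lay far below 1, for example 0.110 at chr1:69487563-69488148. Stat5a was below its 8 h level in all 10, with ratios from 0.250 to 0.585.

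Falls called on all reads were few and mostly in narrow regions. Of the 94 regions called lower, 85 held a Stat5b peak at 8 h, and 77 were in that list alone. Without the heaped regions 85 remained, of which 74 were under 200 bp wide. Only 6 of the regions called lower without heaps had the 30 reads at 8 h that naming required, and 0 of the 6 were called on distinct starts. Their ratios on distinct starts still ran from 0 to 0.687, with a median of 0.219, and rested on fewer counts. The first, chr15:20236959-20237039, had 31 reads at 8 h on 7 distinct starts and 0 reads after 2 rounds, with 11 and 10 IgG reads. Stat5b to IgG ratios in the 6 regions ran from 1.65 to 3.75 at 8 h and from 0 to 0.486 after 2 rounds. IgG thus exceeded Stat5b there at the later stage.

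The 3 regions lower on distinct starts were named after their values were seen. One was chr4:142416312-142416736, held by 4 lists, with 20 reads at 8 h (2.91 RPM) on 15 starts, 35 reads (3.87 RPM) at 13 h and 0 reads after 2 rounds. Stat5a went there from 5.43 to 0.752 RPM, and IgG had 0.160 RPM at 8 h and no read after 2 rounds. The region chr12:5606521-5606572 had 19 Stat5b reads but also 14 IgG reads at 8 h. The last, chr5:30394041-30394095, had 16 Stat5b reads at 8 h and 0 after 2 rounds, with 9 IgG reads after 2 rounds.

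In 27 regions, called heaped, over 50% of the reads of at least 1 of the 4 libraries began at a single base of 1 strand, with 20 reads or more in that region. They took 2.22% of the Stat5b reads at 8 h and 0.0114% after 2 rounds, and 1.39% and 1.22% of the IgG reads. Most of these reads lay in chr16:60832722-60832760, with 140222 Stat5b reads at 8 h, 140061 of them at 1 start, and 33 after 2 rounds. IgG had 12670 RPM there at 8 h and 10760 RPM after 2 rounds. The region chr3:107783672-107783710 had 1506 RPM of Stat5b at 8 h and no read after 2 rounds, with IgG at 1064 and 932 RPM. Of the 94 regions called lower, 9 were heaped, and of those called higher, 1 was.

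Regions also lay in groups. Groups were formed after values were seen from regions in at least 2 lists, without heaps, less than 10 kb apart, and 208 of the 11302 groups had 5 or more regions. Their summed ratio had a median of 4.84, against 5.38 for the 8462 regions that stood alone, and in 184 of the 208 (88.5%) the interval lay above 2. Of their 1330 regions, 406 were in the Stat5b list of 8 h and 1221 in that of 2 rounds, and 32 groups had no Stat5b peak at 8 h.

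The group with the most Stat5b reads above IgG was chr9:107152367-107172446, which contains the strongest region. Its 7 regions summed to 82.6 RPM at 8 h, 242 at 13 h and 598 RPM after 2 rounds. Its ratio was 7.25 (6.64 to 7.92), and the ratios of its regions ran from 2.94 to 10.3. The second by reads above IgG at both stages was chr2:11533859-11581322. Its 14 regions summed to 80.5 RPM at 8 h and 335 RPM after 2 rounds, a ratio of 4.16 (3.79 to 4.57). The group chr16:10660970-10702654 had 15 regions, of which 2 held a Stat5b peak at 8 h and 15 after 2 rounds. It went from 41.1 to 314 RPM, a ratio of 7.64 (6.75 to 8.68).

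The largest group ratio was at chr1:132704482-132732644, where 6 regions spread over 28.2 kb. They summed to 5.10 RPM at 8 h, level with IgG at 5.13 RPM, then 26.1 RPM at 13 h and 188 RPM after 2 rounds, with IgG at 7.60 RPM. The ratio was 36.8 (26.4 to 53.1), and by reads above IgG the group moved from rank 205 of 208 at 8 h to rank 8. The Stat5b list of 8 h held none of its regions, and that of 2 rounds held all 6.

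Its strongest region, chr1:132706649-132708567, went from 2.33 to 78.2 RPM, a ratio of 33.6 (20.5 to 59.1). Next, chr1:132729732-132731205 went from 7 to 331 reads, or 1.02 to 43.2 RPM, a ratio of 42.4 (20.35 to 106.3). Its neighbour chr1:132731602-132732644 went from 3 reads to 262, or 0.437 to 34.2 RPM, a ratio of 78.3 (26.5 to 382). The first region of the group, chr1:132704482-132705034, had 4 reads at 8 h and 18 after 2 rounds and was not called. Stat5a ratios in the 6 regions ran from 1.88 to 22.6.

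At chr2:43960988-43989252, 6 regions went from 6.26 to 124 RPM, a ratio of 19.8 (14.6 to 27.5). At chr11:53432928-53465886, 8 regions went from 6.99 RPM at 8 h to 26.1 at 13 h and 126 RPM after 2 rounds, a ratio of 18.1 (13.5 to 24.7), and all 8 were higher. IgG summed to 5.13 and 10.9 RPM over the same 8 regions.

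At the other end, the group chr9:2999924-3038532, with 21 regions, had 839 and 703 RPM of Stat5b but 988 and 1279 RPM of IgG, a ratio of 0.837 (0.807 to 0.869). Leaving it aside, the smallest ratio was at chr3:115790600-115809440, where 6 regions went from 7.86 to 10.7 RPM, a ratio of 1.36 (0.954 to 1.96). At chr2:61284281-61313856, 5 regions went from 12.4 to 18.2 RPM, a ratio of 1.47 (1.11 to 1.94), and 0 of them were called. The most occupied of these, chr2:61297485-61298676, had 5.10 RPM at 8 h, 6.97 at 13 h and 6.66 RPM after 2 rounds. Regions of unequal change thus also lay within single groups: in chr16:49689284-49725686, 13 regions had ratios from 0.571 to 21.5.

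The 27081 regions with a Stat5b peak after 2 rounds and no 8 h peak of either Stat5a or Stat5b lay at all distances from the nearest region with an early peak. Of these, 4.46% were within 1 kb, 14.1% between 1 and 10 kb, 26.0% between 10 and 50 kb, 32.1% between 50 and 200 kb and 23.3% farther away. Because the compared libraries gave the peaks that chose these regions, their ratios describe the set and are no separate evidence of direction. The share called higher was 59.75% over the whole set, 55.6% in the nearest class and 61.0% in the farthest. The median ratio ran from 5.38 in the nearest class to 6.28 in the farthest. Since their width also fell from a median of 589 to 547 bp, distance and size were not separated.

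By chromosome, the share of regions called higher lay between 40.2% and 47.6% on every autosome. On chromosome X it was 31.2%, 271 of 870 regions, and the median ratio there was 4.48. The same median was seen on chromosome 1, which had the lowest share among the autosomes. By width, the share rose from 0.556% in regions under 200 bp to 25.9% from 200 bp, 62.2% from 500 bp, 81.8% from 1000 bp and 92.6% from 2000 bp. Wider regions also hold more reads, and of the 3235 regions under 200 bp only 1025 had reads at both stages. Over regions read at both stages, the median ratio was 0.897 under 200 bp, 3.905 from 200 bp, 5.61 from 500 bp, 5.21 from 1000 bp and 5.19 from 2000 bp. Peaks of the Stat5b list at 8 h were narrower than those of 2 rounds, with medians of 96 and 578 bp. Width and list were thus not separated.

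Stat5a, measured by its own libraries of the same stages, had a median ratio near 1 over regions with Stat5a reads at both stages. This median ratio was 1.10 over 28639 regions. By the same rule 1633 regions were higher (3.73%) and 834 lower (1.91%), and on distinct starts 436 higher (0.996%) and 179 lower (0.409%). The median leaves out regions with no Stat5a read at 8 h, of which there were 13339 without heaps. Over all regions the median Stat5a level went from 0.639 to 1.20 RPM. The Stat5a library at 8 h held 3130228 reads, fewer than that of Stat5b, which limits the Stat5a calls. In the Stat5a library of 2 rounds 54.5% of the reads were 24 bp long, against 0% in that of 8 h. The Stat5b libraries of both stages had 0%, and the effect of this difference was not tested. Among the 18984 regions higher for Stat5b, 1431 (7.54%) were higher for Stat5a and 68 (0.358%) lower, and their median Stat5a ratio was 1.41. In the 5193 regions with a Stat5a peak at 8 h, Stat5b was higher in 2372 (45.7%) and lower in 2. Stat5a itself was higher in 65 and lower in 656 of them, a comparison that the choice of regions by the Stat5a library at 8 h affects. In the 1152 regions held by all 6 lists, 793 (68.8%, against 43.4% of all regions) were higher for Stat5b and 0 lower. Their median Stat5b ratio was 4.15. Their median Stat5a ratio was 0.971.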

How the data were processed

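The deposited files give coordinates: per the file headers and names, each library has a list of mapped reads on the mm8 build, with start, end, strand and a mismatch class, and each Stat5 library has a list of peaks by the authors with start and end and no other score. The sources used here do not give the aligner, the peak caller, its threshold or how IgG was used. The Stat5b reads were 25 bp long, as were those of IgG at 8 h. In the IgG library of 2 rounds 77.3% were 24 bp long, and the 5' ends of these were moved 1 bp upstream. Positions are 1-based.

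The members and lists were chosen with earlier results of these data known. Peaks of the 6 lists were joined on any overlap of 1 bp. Read 5' ends were counted per region and scaled to reads per 1000000. Ratios carry exact conditional intervals at 95%, shares Wilson intervals. A region with 0 reads has its fold bounded with 3 counts. Regions with over 50% of at least 20 reads at 1 start and strand in any of the 4 libraries were set apart as heaped.

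Named regions, by position since no mm8 annotation was used, are the 10 with the most Stat5b RPM above IgG at each stage; up to 10 called in each direction, with at least 30 reads in the higher library, ordered by the bound of the interval nearest 1; and up to 10 with at least 60 reads in both libraries whose ratio was nearest 1. Sets, groups and falls described as chosen after values were seen lie outside this rule. The counting and calling were tested on simulated data. Alternatives were the scaling, distinct starts, a read shift of 75 bp, other sets of lists, the 50% of each list with more reads, a fold of 1.5, pooled or 25 bp IgG reads, no heaped regions and, chosen after seeing the data, reads with no mismatch, the median scaling of named regions and class medians with regions read at 1 stage alone. The tools were scipy 1.17.1, numpy 2.4.6 and pandas 2.3.3 under Python 3.11.15, with matplotlib 3.10.9 for figures.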

Additional observations from a re-analysis of the deposited data

Results flagged for a closer look

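Mitochondrial reads, which the comparison left out, were more frequent in the Stat5b libraries than in IgG. At 8 h they made up 627 RPM against 292 RPM, a ratio of 2.15 (interval 2.04 to 2.27). After 2 rounds they made up 815 against 408 RPM, a ratio of 2.00 (1.91 to 2.10).

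In 68 regions Stat5b was higher and Stat5a lower after 2 rounds, and in 4 the calls were the other way round. The 68 were 0.358% of the 18984 regions higher for Stat5b, while 1.91% of all regions were lower for Stat5a. The 4 were 4.255% of the 94 lower for Stat5b, while 3.73% of all regions were higher for Stat5a. These opposite calls were flagged because both antibodies were read over the same stages, and the difference itself was not tested. None of the 68 was heaped, 31 held a Stat5a peak at 8 h, and 0 of them had opposite calls on distinct starts. Their median Stat5b ratio was 8.66 and their median Stat5a ratio 0.0821, in regions chosen by calls in those directions. At chr2:165178205-165178806 Stat5b went from 3 to 32 reads, a ratio of 9.57 (2.99 to 48.8), while Stat5a went from 3.51 RPM to no read. Of the 4 other regions, 3 were heaped.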

How the results depend on the processing

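The larger number of higher than lower Stat5b regions held under every alternative except the median scaling, which gave 805 higher, 805 of them above IgG, and 1988 lower. With regions in at least 2 lists 9756 were higher, 9688 of them above IgG, and 9 lower, with a median of 2.34 (log2). With regions from the 4 other lists these were 8675, 8430, 17 and 2.00. Both alternatives hold fewer regions. The share called higher was 60.8% of 16042 regions in at least 2 lists and 31.7% of 27399 from the 4 other lists. In the main run it was 43.4%. Distinct starts gave 3 lower and a median of 2.13. Scaling to reads outside regions gave 60 lower and 2.49, reads with no mismatch 22 lower and 2.26, a shift of 75 bp 22 lower, a fold of 1.5 243 lower, and the 50% of each list with more reads a median of 2.39. With 25 bp IgG reads alone 11409 regions were higher and above IgG, the later IgG library being then far smaller. Early peaks found again fell to 0.643% when 50% of both peaks had to overlap, and later peaks present early to 0.0756%, or rose to 8.43% with the 50% of each list with more reads. The median scaling divides every ratio by the same factor. Of the named regions called higher it took 2 below 1, chr1:60990082-60991533 to 0.717 and chr9:107190761-107194586 to 0.933, and uncalled ones as well, such as chr8:84398358-84399721 from 2.38 to 0.494. Where no construction is named, the cause was not tested. With reads moved by 75 bp, 6 named regions gave no value. No paired analysis was possible because each group has 1 library. Low counts at 8 h, with a median of 4 reads a region, limit single ratios.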

Other observations

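Of the 182 regions with at least 60 reads in both Stat5b libraries and no heap, the 10 with a ratio nearest 1 had ratios from 0.894 to 1.12. Their Stat5b to IgG ratios ran from 0.391 to 1.13 at 8 h and from 0.4995 to 1.35 after 2 rounds. Of these, 5 lay close together at the start of chromosome 9, the first being chr9:3002267-3002516.

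The heaped region chr7:125339709-125340091, held by all 6 lists, had 566 Stat5b reads at 8 h and 426 after 2 rounds, but 11 distinct starts in each. Stat5a had 2008 RPM there at 8 h and 85.6 RPM after 2 rounds.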
